A study of Cricetiscus sungorus with 216 samples.

Results

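The collagen genes are the genes that code for the chains of the collagen proteins, and they were taken here as every gene symbol built from Col, a number, the letter a and a number. Of the 32078 gene symbols read in any of 4 tissues, 44 were collagen genes, and 24 of these were present for every tissue. The mediobasal hypothalamus (MBH) had 41 collagen genes of 20156 symbols, the dorsomedial hypothalamus (DMH) 40 of 21821, the paraventricular nucleus (PVN) 31 of 18960 and the pituitary gland 40 of 22482. Male Djungarian hamsters of 3 to 8 months of age were held in long photoperiod (LP, 16 h light and 8 h dark, 6 hamsters) or moved to short photoperiod (SP, 8 h light and 16 h dark) for 4, 8, 12, 16, 20, 24, 28 or 32 weeks (6 hamsters each). They came from a colony, with food freely available, and the labels give no treatment other than photoperiod. The 4 tissues of the same 54 hamsters were sequenced as cDNA on the nanopore platform, which gave 54 libraries per tissue. The hypothalamic tissues were punches of frozen sections and the pituitary gland was taken whole, so that fewer cells of a type and less RNA per cell cannot be told apart.

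Collagen chains wind into a triple helix, and the family is sorted by what the helices build. Fibrillar collagens such as types I and III form the cables of meninges, vessel walls and capsules. Type IV collagens form the network of basement membranes around vessels, and type VI forms beaded filaments close to cells. Fibril associated collagens decorate the cables, multiplexins (types XV and XVIII) sit in basement membranes, and transmembrane collagens (types XIII, XVII, XXIII and XXV) stay anchored in cell membranes. In brain the main sources are fibroblasts of the meninges and cells of the vessel wall, whereas type XXV is known as a neuronal collagen.

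The libraries held few collagen reads. Without Gm32262 and Lars2, the genes that took up to 69.1% and 32.2% of a library, a library of median depth held 952266 counts in the MBH, 931854 in the DMH, 168892 in the PVN and 63485 in the pituitary gland. A single count in such a library was worth 1.05, 1.07, 5.92 and 15.8 CPM, the count scaled to a library total of 1e+06, respectively. Many values below therefore rest on few counts, and a value of 0 allows up to 3 counts, or 3.15, 3.22, 17.8 and 47.3 CPM at these depths. The library of replicate 2 at 20 weeks in the MBH held 4433 counts, and those of LP replicate 1 and of replicate 4 at 16 weeks in the PVN held 159 and 5158 counts. Leaving these out changed no count of called collagen genes. Defining genes were read where the dissection would place them in the MBH (Pomc and Cartpt in 54 of 54 libraries, Agrp in 53) and in the pituitary gland, where the summed pituitary markers had a median of 100241 CPM. In the PVN libraries Trh was read in 51 of 54 and Sim1, the other PVN marker with values, in fewer than 27. Avp, Oxt and Crh, neuropeptides that define this nucleus, had no values to analyse, so the label could not be checked against them. Summed markers in the PVN libraries had medians of 142 CPM for 2 PVN genes, 210 CPM for 6 MBH genes and 75.9 CPM for 5 DMH genes. These sums cover different genes, and their order was not tested. In the DMH libraries Npvf was read in 9 and Gpr50 in 7 of 54, and Pmch in 44.

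Reads of a collagen gene were often counted in many isoforms of that gene at once, which bears on every level below. Col25a1 had 32 isoforms in the MBH, and in a typical library with counts all 32 were above 0. Of those isoform values, 59.9% equalled the highest isoform of their library, and the summed count over the 54 libraries was 6383, 27.6 times the count obtained when the highest isoform of each library stood for the gene. The same ratio was 10.97 for Col11a2 in the MBH, 6.69 for Col27a1 in the pituitary gland, and 1.00 for genes with a single isoform such as Col1a1, Col1a2 and Col3a1. Summed values follow, and the highest-isoform count stands beside them where the isoforms matter. Levels were not compared between genes, because no transcript lengths were at hand.

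**Figure D1:**
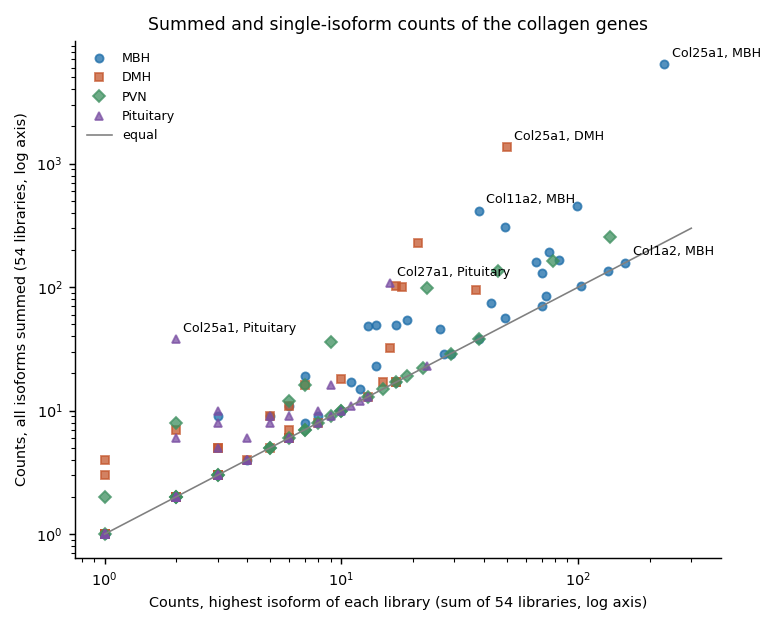
Counts of each collagen gene in each tissue over 54 libraries, with the highest isoform of each library on the horizontal log axis and all isoforms summed on the vertical log axis, 1 point per gene and tissue. Genes with 1 isoform lie on the line of equality, and Col25a1 in the MBH lies farthest above it, at 27.6 times the highest-isoform count.

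The MBH was the tissue in which most collagen genes were read. Of the 41 genes, 13 had counts in at least 27 of the 54 libraries, and none had counts in all 54. The median collagen gene was read in 15 libraries, against 37 for the median of all gene symbols. The highest-isoform counts of the family came to 1658 over the 54 libraries, and no isoform of a collagen gene held more than 21 counts in a library. The 27 deeper MBH libraries had counts for a median of 17 collagen genes and the 27 shallower for 11, so that the number of genes read moved with depth.

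**Figure D2:**
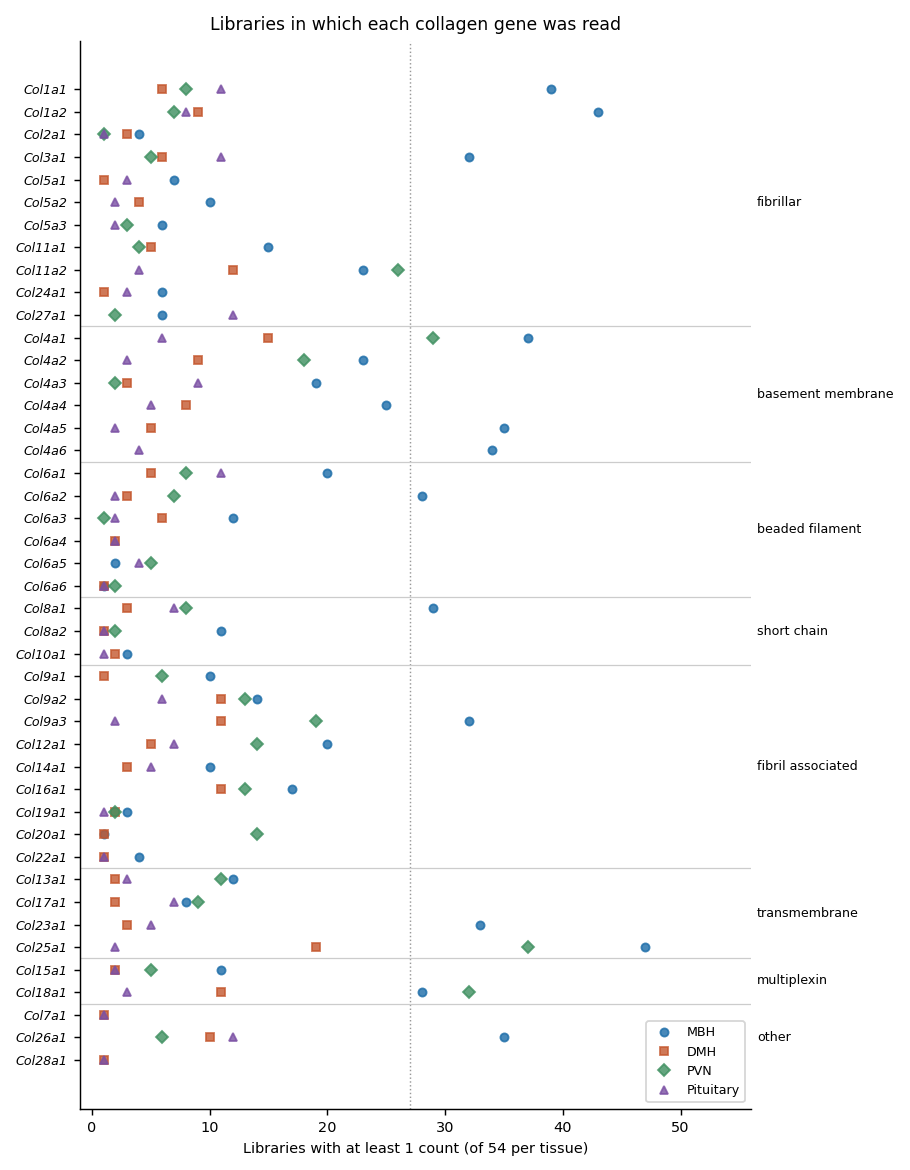
Number of libraries (of 54 per tissue, horizontal axis) in which each of the 44 collagen genes had at least 1 count, by tissue and grouped by the kind of collagen. The dotted line marks 27 libraries, which 13 genes reached in the MBH, 3 in the PVN and 0 in the DMH and the pituitary gland.

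Among the fibrillar chains of the MBH, Col1a2 was read in 43 libraries, Col1a1 in 39 and Col3a1 in 32. Col1a2, the second chain of type I collagen, had 0 to 4.55 CPM in LP (median 3.18), 0 to 12.95 after 8 weeks SP (group median of 1.59), and it ran from 1.44 to 6.30 after 32 weeks (1.83). Col1a1, its partner chain, had 0 to 2.69 CPM in LP, with a median of 1.04. After 12 weeks SP it reached 7.52 CPM with a median of 3.25, and after 32 weeks 14.7 CPM with a median of 0.627. The highest Col1a1 value, 225.6 CPM, was a single count in the library of 4433 counts at 20 weeks. Col3a1, the chain of type III collagen, had a median of 0.854 CPM in LP and medians of 0.386 to 1.38 CPM in the SP groups. All groups overlapped for each of these 3 genes. In SP against LP (8 weeks together, log2 scale with SE) Col1a1 differed by 1.05 ± 0.81 and Col1a2 by -0.18 ± 0.58, and both had an adjusted p of 1 (edgeR quasi-likelihood F-test). Other fibrillar chains were sparse, with Col5a1, Col5a2 and Col5a3 (the regulators of fibril diameter) in 7, 10 and 6 libraries, and Col2a1, the cartilage collagen, in 4.

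The basement membrane chains had Col4a1 in 37 MBH libraries, Col4a5 in 35, Col4a6 in 34, Col4a4 in 25, Col4a2 in 23 and Col4a3 in 19. Col4a1, a chain of the vascular network, was at 0, 2.85, 0, 0, 0.622 and 4.55 CPM in the 6 LP libraries. It was at 6.62, 3.74, 0, 10.7, 6.02 and 6.36 CPM at 12 weeks, and at 0, 0, 0, 0, 2.67 and 1.74 CPM at 32 weeks. The 12-week group was the highest of the 9 by its median (6.19 CPM) and still overlapped LP and 32 weeks. At 12 weeks against LP the difference was 1.67 ± 0.82 on the log2 scale, with an unadjusted p of 0.0476 and an adjusted p of 0.999 in the edgeR test. Col4a5, a chain of specialised basement membranes, had medians of 5.93 CPM in LP and of 0 to 10.4 CPM in the SP groups, and Col4a6, its neighbour in those membranes, 0.759 CPM and 0 to 3.18 CPM.

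Col18a1, the multiplexin from which endostatin is cut, was read in all 6 LP libraries of the MBH, at 5.93, 4.56, 1.35, 48.7, 4.36 and 11.4 CPM. At 32 weeks it was read in 1 of 6, at 0.720 CPM, and every other library was at 0. The lowest LP value was a single count, and a 0 allows up to 3.15 CPM at the median depth, which lies within the LP range. The 7 groups between had counts in 2 to 4 of 6 libraries and reached 37.7 CPM at 24 weeks. The 32-week difference had an unadjusted p of 0.00232 and an adjusted p of 0.758. Summed over its 8 isoforms Col18a1 had 49 counts in LP, and the highest isoforms held 8. The LP and 32-week libraries had overlapping depths, of 307943 to 1755929 and 476352 to 1871907 counts. Over SP as a whole Col18a1 differed from LP by -1.44 ± 0.80 on the log2 scale, with an adjusted p of 0.763.

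Col25a1, the transmembrane collagen of neurons, was read in 47 of 54 MBH libraries and held 67.8% of all summed collagen counts there, but 13.9% of the highest-isoform counts. In LP it had 190, 115, 135, 208, 80.9 and 33.4 CPM. The SP groups had medians of 34.1 CPM (20 weeks) to 161.3 CPM (12 weeks), and at 20 weeks single libraries ran from 0 to 176 CPM. The spread within a group was as wide as that between groups, and LP overlapped every SP group. In SP against LP the difference was -0.19 ± 0.62 on the log2 scale (adjusted p of 1 in the edgeR test). The other transmembrane collagens had Col23a1 in 33, Col13a1 in 12 and Col17a1 in 8 MBH libraries. Col23a1 differed by -0.62 ± 0.72 on the log2 scale in SP, with an adjusted p of 1.

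**Figure D3:**
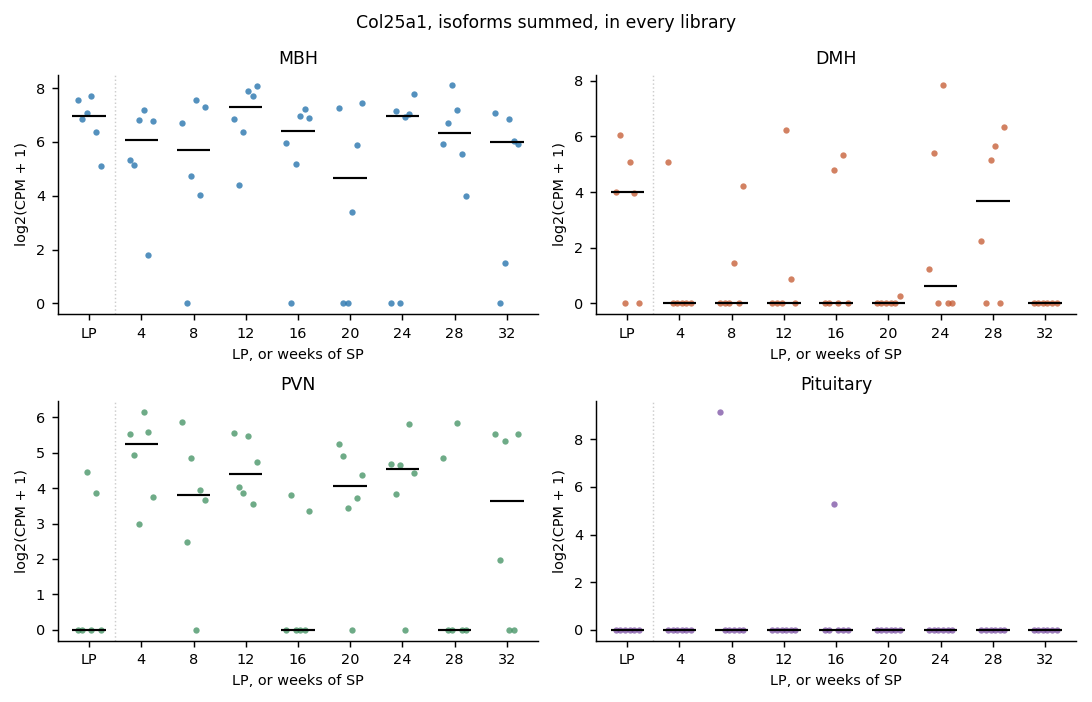
Col25a1 in each library as log2(CPM + 1), isoforms summed, in LP and after 4 to 32 weeks SP, with 6 hamsters per group, a black bar for the group median and a panel per tissue. MBH libraries spread from 0 to 274 CPM in overlapping groups, and the pituitary gland had counts in 2 of 54 libraries.

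The remaining MBH collagens that reached 27 libraries were Col26a1 in 35, Col9a3 (a chain of the fibril associated type IX) in 32, Col8a1 (a short chain collagen of vessels) in 29 and Col6a2 (a chain of the beaded filament) in 28. Col8a1 had a median of 2.28 CPM in LP and medians of 0 to 1.06 CPM in the SP groups, and Col9a3 had 4.71 CPM in LP and 0.279 to 1.74 CPM in SP. Each of these LP ranges began at 0 and overlapped every SP group, and Col9a3 differed by -0.68 ± 0.74 on the log2 scale in SP (adjusted p of 1). Of the 13 genes, 5 were higher and 8 lower in SP by their point estimates, with a median difference of -0.18 on the log2 scale. Of the 12037 gene symbols read as widely, 5486 were higher and 6551 lower, with a median difference of -0.04. The summed level of the whole family in the MBH was 91.1 to 386 CPM in LP (median 173) and had a median of 143 CPM over the SP libraries. The summed markers of fibroblasts and meninges, of which 7 of 12 reached 27 libraries, were 80.9 to 292.3 CPM in LP (median 134), with a median of 64.0 CPM in SP. Pituitary markers summed to 1239 to 3624 CPM in the LP libraries of the MBH and to a median of 346 CPM in SP, where the highest library had 1408. The part of either in the collagen values was not tested. With the highest isoform of each gene the summed collagen level was lower, with medians of 65.5 CPM in LP and 43.5 CPM in SP.

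**Figure D4:**
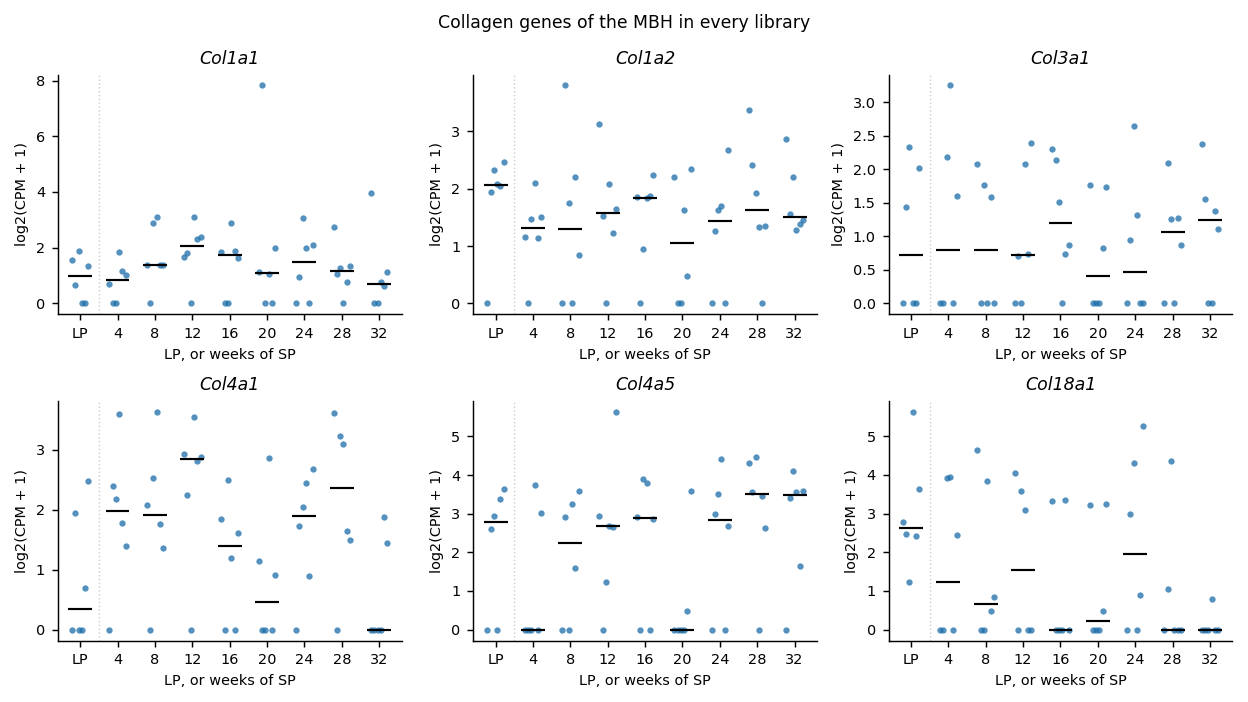
Fibrillar chains (Col1a1, Col1a2, Col3a1), basement membrane chains (Col4a1, Col4a5) and Col18a1 in each MBH library as log2(CPM + 1), with 6 hamsters per group and a black bar for the median. Col18a1 had counts in 6 of 6 LP libraries and 1 of 6 at 32 weeks, and the highest Col1a1 point is 1 count in a library of 4433 counts.

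Which collagen genes changed over the 9 groups of the MBH was asked with edgeR's quasi-likelihood F-test at an FDR below 0.1, fitted on all gene symbols. No collagen gene passed, while 0.437% of all genes did. DESeq2 called none, but over the 9 groups it had 0 collagen genes even at an unadjusted p below 0.05 in the MBH, DMH and pituitary gland. For sparse MBH genes such as Col13a1 it gave no adjusted p. Its counts of 0, here and below, are therefore no independent check on sparse genes. At an unadjusted p below 0.05 there were 9 of 41 collagen genes, against 8.03% of all genes. These 9 (Col13a1, Col14a1, Col19a1, Col22a1, Col24a1, Col27a1, Col6a3, Col8a2 and Col9a1) were read in 3 to 12 libraries each, and with the highest isoform of each library in place of the sum the count of collagen genes at this threshold was 2. The smallest adjusted p was 0.244, for Col13a1. Between SP and LP none of the 41 passed (0.809% of all genes did), and 1, Col16a1, had an unadjusted p below 0.05 (7.01% of all genes). Between 24 to 32 weeks and 12 to 20 weeks, the span in which hamsters become refractory to SP, none passed (0.00992% of all genes) and 3 had an unadjusted p below 0.05 (4.38%). At any SP week against LP none passed (0.0248%) and 15 had an unadjusted p below 0.05 in some week (19.5%). DESeq2 called 0 collagen genes in each of these comparisons.

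Pairs of chains, from the same fibril (Col1a1 with Col1a2), from the fibrillar class (Col1a1 with Col3a1) or from different structures (Col1a1 with the basement membrane chain Col4a1), were compared across the MBH libraries, where both were read in at least 27 libraries. Of the 20 relations planned (5 pairs in 4 tissues), 3 could be computed, on log2(CPM + 1) with 2-sided permutation tests of 100000 draws and adjustment over the 3. Col1a1 and Col1a2 correlated with a Pearson r of 0.12 (permutation p = 0.389, adjusted 0.389) and a Spearman rho of 0.31 (permutation p = 0.0212, adjusted 0.0318) over 54 libraries. Col1a1 and Col3a1 had an r of 0.15 (permutation p = 0.279, adjusted 0.389) and a rho of 0.27 (permutation p = 0.0479, adjusted 0.0479). Col1a1 and Col4a1 had an r of 0.20 (permutation p = 0.138, adjusted 0.389) and a rho of 0.38 (permutation p = 0.00477, adjusted 0.0143). Without the 2 libraries farthest from the median of Col1a1, the 3 values of r were 0.31, 0.28 and 0.53. Those 2 include the library with 4433 counts, and without that library alone r was 0.35, 0.33 and 0.42. Taken as deviations from the group means over all 54 libraries, r was 0.16, 0.19 and 0.22. Both chains were read together in 34, 27 and 31 libraries, respectively, and libraries of greater depth had more genes read, so that depth moves with each relation. Its part was not tested.

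In the DMH collagen genes were read less often than in the MBH of the same hamsters at a similar median depth. None reached 27 libraries, the median collagen gene was read in 3, and 26 of 40 were read in at most 5. Col1a1 was read in 39 MBH and 6 DMH libraries, Col1a2 in 43 and 9, Col3a1 in 32 and 6, and Col4a1 in 37 and 15. Of the 37 collagen genes present for both tissues, 35 were read in more MBH than DMH libraries (94.6%). So were 93.5% of all 17758 shared gene symbols, a share near its ceiling that does not compare the size of the drop. Among genes read in 15 to 45 MBH libraries, the 19 collagen genes had medians of 28 MBH and 6 DMH libraries. The 6442 shared symbols in that range had medians of 33 and 13. The difference between these drops was not tested. Markers of fibroblasts and meninges had a median summed level of 2.11 CPM in the DMH and 67.7 CPM in the MBH.

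DMH Col25a1 had 15.1, 65.4, 0, 33.1, 14.7 and 0 CPM in LP, and 3.73, 0, 34.5, 49.6, 0 and 80.6 CPM at 28 weeks. It was at 0 in all 6 libraries at 32 weeks and in 5 of 6 at 4 and at 20 weeks. The highest library, at 24 weeks, had 228 CPM, from isoforms of at most 7 counts. Col25a1 was counted in 19 libraries in all, 1370 summed counts and 50 by the highest isoform. Col4a4, a chain of the basement membranes of kidney and ear, was read in 8 libraries, with 8.15 CPM (7 counts) in the highest, at 12 weeks. These 2 of 40 genes (5.00%) passed over the 9 groups, with adjusted p of 0.0687 for Col25a1 and 0.0150 for Col4a4, against 4.37% of all genes, a share near the background. Neither passed with the highest isoform of each library (adjusted p of 0.987 and 0.699), with the current method of edgeR (0.192 and 0.679) or with DESeq2 (1 for both). With the replicate number as a block the values were 0.110 and 0.123. Leaving out the replicate 4 libraries, which include the highest library of both genes, left 0 calls.

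At an unadjusted p below 0.05 over the 9 groups there were 7 of 40 DMH collagen genes (14.2% of all genes). In SP against LP none passed (3.73% of all genes) and 5 had an unadjusted p below 0.05 (11.9%), and the median difference of all widely read genes was itself -0.28 on the log2 scale. Between late and middle SP weeks none passed (0.00% of all genes) and 0 had an unadjusted p below 0.05 (5.17%). At any single week none passed (0.0183%) and 16 had an unadjusted p below 0.05 in some week (30.1%). DESeq2 called 0 in all of these. The summed family had 0 to 108 CPM in LP (median 18.2) and a median of 1.92 CPM in SP. Marker lists were lower in the SP libraries of the DMH too, with medians in LP and SP of 329 and 91.1 CPM for neurons, 9.80 and 1.85 CPM for fibroblasts and meninges, and 66.7 and 29.7 CPM for astrocytes. Their part in the collagen values was not tested.

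The PVN had 3 collagen genes in at least 27 libraries, Col25a1 in 37, Col18a1 in 32 and Col4a1 in 29, with Col11a2 (a fibrillar chain of cartilage and inner ear) in 26. Here Col25a1 had 2 isoforms, with 256 summed counts and 136 by the highest isoform. It was at 0, 0, 21.04, 0, 13.5 and 0 CPM in LP and at 45.6, 29.6, 6.97, 70.6, 46.7 and 12.5 CPM at 4 weeks, so that it was read in 2 of 6 and in 6 of 6 libraries. The groups overlapped, and at 16 and 28 weeks it was again read in 2 of 6. The 4-week difference was 1.51 ± 0.75 on the log2 scale (unadjusted p = 0.0485, adjusted p of 0.920 in the edgeR test), and over SP as a whole it was 0.75 ± 0.63 (adjusted p of 1), or 2.26 without the replicate 3 libraries (adjusted p of 0.836).

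PVN Col18a1 was at 0 in 5 LP libraries and at 29.1 CPM in the remaining one, replicate 3, whose depth of 998193 counts was the greatest of the tissue. The 5 LP libraries at 0 held 159 to 196074 counts. At 8 weeks Col18a1 was read in all 6 libraries, at 38.7, 36.9, 17.8, 49.5, 29.1 and 11.7 CPM, from 2 to 9 counts each. These were 31 summed counts and 14 by the highest isoform, with at most 4 in a library. A 0 allows up to 17.8 CPM at the median depth, which lies within the 8-week range. The 8-week group overlapped LP through LP replicate 3, and the difference was 1.18 ± 0.76 on the log2 scale (unadjusted p = 0.123, adjusted p of 1). Over SP as a whole Col18a1 differed from LP by -0.05 ± 0.45, and by 4.204 when the replicate 3 libraries were left out (adjusted p of 0.739). Col4a1 had a median of 6.01 CPM in LP and medians of 0 (12 weeks) to 13.9 CPM (24 weeks) in SP, with 270 CPM from 6 counts in a library at 16 weeks, and a difference in SP of 0.16 ± 0.83 (adjusted p of 1). The summed family in the PVN had 0 to 92.2 CPM in LP (median 30.3) and a higher median in SP, of 73.0 CPM, and 3 of the 6 LP libraries had no collagen count. The library of 159 counts was among them. The summed endothelial markers had medians of 86.5 CPM in LP, 105.3 CPM over SP and 141.2 CPM at 8 weeks. Summed markers of mural cells, which are cells of the vessel wall, were lower in SP, with medians of 51.96 CPM in LP and 45.71 CPM over SP. The part of either list in the PVN values was not tested.

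**Figure D5:**
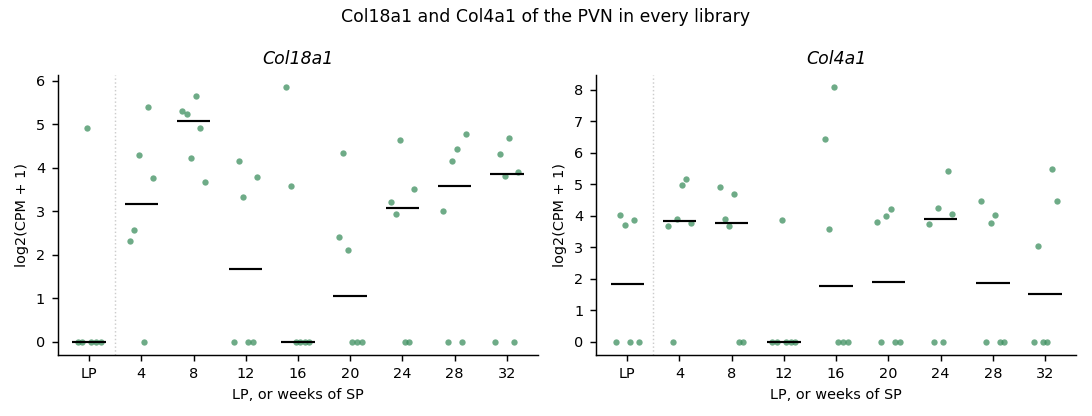
Col18a1 and Col4a1 in each PVN library as log2(CPM + 1), with 6 hamsters per group and a black bar for the median. Col18a1 had counts in 1 of 6 LP libraries and in 6 of 6 at 8 weeks, and the 29.1 CPM of the LP library lie within the 8-week range of 11.7 to 49.5 CPM. The LP libraries without Col18a1 counts held 159 to 196074 counts in total.

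Col1a1 was scarce in the PVN, with 9 counts in 8 libraries, 3 of them in LP, 3 at 4 weeks and 1 each at 12 and 16 weeks. It had an unadjusted p of 0.000995 in SP against LP and an adjusted p of 0.356. No PVN collagen gene passed over the 9 groups (0.0158% of all genes), in SP against LP (0.0211%), between late and middle weeks (0.00%) or at any week (0.00%). Unadjusted p below 0.05 were had by 5 of 31 over the 9 groups (6.12% of all genes), by 2 in SP (5.26%), by 3 between late and middle weeks (4.44%) and by 12 in some week (17.4%). DESeq2 called 0 in each.

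The pituitary gland libraries were the shallowest, with 203 collagen counts by the highest isoform over 54 libraries. Col26a1 and Col27a1 (a fibrillar collagen of cartilage) were read in 12 libraries each, and Col1a1, Col3a1 and Col6a1 in 11 each. Col1a1 was read in 1 of 6 LP libraries, in 2 of 6 at 4 weeks, in 0 of 6 at each of 8, 12 and 16 weeks, in 3 of 6 at 20 and at 32 weeks and in 1 of 6 at 24 and at 28 weeks, with 1 or 2 counts in a library (adjusted p of 0.284 over the 9 groups in the edgeR test). Of the 40 genes, 28 were read in at most 5 libraries. The summed family had medians of 47.1 CPM in LP and 42.8 CPM over SP.

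Over the 9 groups 5 of 40 pituitary collagen genes passed (12.5%), against 9.53% of all genes, which is near the background. Col25a1 (adjusted p of 0.00238) had counts in 2 libraries, with 573 CPM from 29 isoforms of 1 count each at 8 weeks and 38.5 CPM from 9 such isoforms at 16 weeks. Col6a4 (0.0215) had counts in 2 libraries at 4 weeks, of 77.4 and 11.1 CPM. Col27a1 (0.0539) was counted in 12 libraries spread over 8 of the 9 groups, from 5.47 CPM in LP to 332.9 CPM at 16 weeks, with at most 2 counts in an isoform. Col4a5 (0.0685) and Col13a1 (0.0699) were counted in 2 and 3 libraries, with no isoform above 1 count. With the highest isoform of each library in place of the sum, each of the 5 had an adjusted p of 0.925, and with DESeq2 of 1. The current method of edgeR went the other way for Col25a1 (2.47e-09) and Col27a1 (7.2e-05). It kept Col6a4 (0.0742) but not Col4a5 (0.529) or Col13a1 (0.5365). With the replicate number as a block Col25a1 (5.37e-05) and Col27a1 (0.000204) alone passed.

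In SP against LP Col4a5 alone passed (1 of 40, against 1.36% of all genes), at -3.00 ± 0.60 on the log2 scale (adjusted p of 0.00313). The call rested on 5 counts, 1 in each of 5 isoforms, in LP replicate 1 (70.6 CPM) and 1 count at 4 weeks (11.1 CPM). Col4a5 was at 0 in every library from 8 to 32 weeks, so the size of the difference is poorly determined and its SE is no measure of precision. Col4a5 was not called without the replicate 1 libraries. With the highest isoform of each library its adjusted p was 0.645. Unadjusted p below 0.05 were had by 8 over the groups (17.7% of all genes) and 5 in SP (9.38%). Between late and middle weeks none passed (0.298% of all genes) and 0 had an unadjusted p below 0.05 (6.88%), and at any week none passed (0.00445%) and 9 had an unadjusted p below 0.05 in some week (25.5%), with 0 called by DESeq2.

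Genes that make, process, degrade or bind collagen were described by the same tests, from a list of 70. Chaperones and enzymes of synthesis were widely read. Serpinh1, the collagen chaperone of the endoplasmic reticulum, had counts in 53 MBH, 34 DMH, 50 PVN and 30 pituitary gland libraries, and P4hb, a subunit of prolyl hydroxylase, in 54, 39, 52 and 53. Serpinh1 differed between SP and LP by -0.24 ± 0.22 in the MBH and by -0.11 ± 0.38 in the PVN on the log2 scale, with an adjusted p of 1 in both. Sparc, a collagen-binding matrix protein of astrocytes and vessels, had 1343 ± 546 CPM in the MBH and 5493 ± 2237 CPM in the PVN (SD, n = 54), and differed by -0.04 ± 0.23 and 0.34 ± 0.33 (adjusted p of 1). None of the 18 synthesis genes passed in any tissue or comparison.

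Over the 9 groups 2 of 68 listed genes passed in the MBH, 5 of 64 in the DMH, 0 of 63 in the PVN and 5 of 66 in the pituitary gland, against 0.437%, 4.37%, 0.0158% and 9.53% of all genes, respectively. In the MBH these were Lair1, an inhibitory collagen receptor of leukocytes (12 libraries), and Lama1, a laminin chain (19 libraries). In the DMH they were Loxl2 (a cross-linking enzyme), Mmp9 (a gelatinase), Ddr2 (a collagen receptor kinase), Lair1 and Lama5, read in 2 to 11 libraries. In the pituitary gland they were Bmp1 (a procollagen proteinase), Mmp8 (a collagenase), Mmp9, Lama5 and Agrn, read in 1 to 7 libraries. With the highest isoform of each library Mmp8 alone of these passed over the 9 groups (adjusted p of 0.0601), with 8 of its 9 counts in a single library. The laminin chain Lama3 passed in the MBH for SP against LP at -3.83 on the log2 scale (adjusted p of 0.00513, against 0.809% of all genes called), on counts in 3 libraries, and with the highest isoform at 0.0288. It had 21 summed counts and 5 by the highest isoform, at most 3 in a library, so the size of the difference is poorly determined. No listed gene passed between late and middle weeks or at any single week.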

How the data were processed

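Tissue was collected from 54 hamsters and nanopore cDNA libraries were made with a PCR-cDNA kit (for the pituitary gland the sources differ between PCR-cDNA and direct cDNA). The authors aligned reads with Minimap2 to the mouse genome GRCm39 and quantified isoforms with Salmon, and describe an edgeR filter for low counts. Collagen genes read in 1 library were still present, 9 in the DMH and 8 in the pituitary gland. The deposited values are expected counts per isoform that the authors did not normalize, and 97.6% to 99.6% of the values above 0 were whole to within 1e-06. PVN isoforms carry identifiers of another kind whose annotation the sources used here do not name, so PVN levels were not compared with other tissues. Hamster reads were assigned to mouse isoforms, often to several of a gene at once, which limits levels of genes with many isoforms.

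Isoforms were summed per gene symbol and rounded, Gm32262 and Lars2 were left out, and CPM were taken on what remained. Each tissue was fitted apart with edgeR 4.0.16 (quasi-likelihood F-test in its edgeR 3 form, TMM, no filter, 9 groups, R 4.3.3), with BH adjustment over all symbols and an FDR below 0.1. The comparisons were all 9 groups, SP (8 weeks together) against LP, 24 to 32 against 12 to 20 weeks, and each week against LP. Fold changes are given for genes read in at least 27 of 54 libraries and for called genes. The SE of a log2 difference was taken as its absolute size divided by the square root of its F value, and was not estimated separately. Correlations used Python with scipy 1.17.1. Named per tissue are the 10 collagen genes with the highest mean CPM, those that passed, and the 5 with the smallest p over the groups, and genes beyond these are described by the libraries in which they were read. The members, lists and tests were chosen with earlier results of these data known. Alternatives were size factors and tests of DESeq2 1.42.0, library totals, both genes kept, filterByExpr, the edgeR 4 method, the isoform with the highest total, fits without each replicate number or without libraries under 10000 counts, a replicate block, and a threshold of 0.05. The maximum isoform in each library, TMM-scaled sums and correlations without the shallow library were chosen after seeing the data. The fits were tried on simulated data in which only genes read in at least 27 libraries were changed. Reads counted in several isoforms were not simulated. The trial therefore does not cover the sparse collagen genes, among them all those of the DMH and the pituitary gland. Columns left unmapped numbered 0, and 0 pairs of libraries were identical. Limits on counts of 0 cover counting error only. Each library is a separate hamster, and no batch is given in the labels.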

Additional observations from a re-analysis of the deposited data

Results flagged for a closer look

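The summed collagen CPM of 9 libraries stood far above the other 5 of their group. Dixon's gap test was used at the 95% level over 36 groups. Chance flags about 1 in 20 groups only where values follow a normal distribution. Summed collagen CPM have a floor, at which several libraries lay, and rest on few counts. The test therefore cannot tell how many groups chance would flag here, and the 9 libraries are listed as a description only. In the DMH these were replicate 1 at 4 weeks (44.02 CPM, the others at most 8.25), replicate 4 at 12 weeks (95.5, at most 32.4), replicate 6 at 20 weeks (5.78, at most 1.92), replicate 4 at 24 weeks (264.9, at most 67.0) and replicate 4 at 32 weeks (16.3, at most 1.93). In the PVN they were replicate 3 at 16 weeks (405 CPM from 9 counts, the others at most 142) and replicate 3 at 32 weeks (171, at most 91.1). In the pituitary gland they were replicate 1 at 8 weeks (771 CPM, from 39 summed counts of which 2 remained by the highest isoform, the others at most 177) and replicate 6 at 16 weeks (380 CPM, from 24 summed counts and 5 by the highest isoform, the others at most 107).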

How the results depend on the processing

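Collagen calls in the DMH and the pituitary gland depended on the processing, and the cause was not tested. Over the 9 groups of the DMH 0 genes were called with filterByExpr, the edgeR 4 method, DESeq2, the highest isoform (by total or in each library) or a replicate block, 1 at an FDR below 0.05, and 0 to 3 with a replicate number left out (0 without number 4, 1 without 3 or 6). In the pituitary gland the 5 calls became 0 with filterByExpr, DESeq2 or the highest isoform of either kind, 3 with the edgeR 4 method, 2 with a replicate block or an FDR below 0.05, and 3 to 5 with a replicate number left out. In SP against LP the 1 pituitary call became 0 with filterByExpr, DESeq2, a replicate block or either highest isoform, and 0 to 2 without a replicate number (0 without 1, 2 without 3). Calls appeared in SP in the DMH (1, Col23a1, with library totals or without number 4, range 0 to 1), in SP in the MBH (0 to 1, Col16a1 without number 3), and at a single pituitary week (1 with the edgeR 4 method, 1 with the block). The filter left 4, 1, 0 and 0 collagen genes in the MBH, DMH, PVN and pituitary gland.

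Of 183 refitted SP differences of 12 genes none was called, and 16 changed sign. In the MBH these were Col25a1 (0.21) and Col23a1 (0.18) with the highest isoform by total, Col23a1 (0.30) with that of each library, Col4a5 (-0.16) and Col4a6 (-0.0028) with the replicate block, and, with a replicate number left out, Col4a5 (-0.27 to 0.50) and Col1a2 (-0.54 to 0.015). In the PVN they were Col4a1 (-0.10 and -0.13 with the 2 kinds of highest isoform, -0.14 to 0.54 by replicate number) and Col18a1 (0.046 with library totals, 0.016 with DESeq2, 0.31 with the block, -0.56 to 4.204 by replicate number). The chain correlations passed an unadjusted permutation p below 0.05 without the 2 farthest libraries (r of 0.31, 0.28 and 0.53) and without the shallow library (0.35, 0.33 and 0.42), while within groups r was 0.16, 0.19 and 0.22. Leaving out a replicate number kept the sign but moved the SP difference of PVN Col25a1 (0.47 to 2.26) and, in the MBH, of Col4a1 (0.32 to 1.74), Col18a1 (-2.10 to -0.84) and Col9a3 (-1.06 to -0.30).

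Counts over all genes moved too: over the 9 groups from 88 to between 3 and 151 in the MBH, from 954 to between 1 and 1808 in the DMH, from 3 to between 0 and 80 in the PVN and from 2142 to between 2 and 2521 in the pituitary gland. Libraries of the same replicate number were slightly more alike than others in each tissue. Deviations of the same number had a mean correlation of 0.046 in the MBH, 0.071 in the DMH, 0.034 in the PVN and 0.065 in the pituitary gland. Those of different numbers had -0.0069, -0.014, -0.0052 and -0.012, respectively. The cause was not tested. Beyond the calls above the block changed no call of a collagen gene. The median collagen gene was read in 15, 3, 7 and 3 of 54 libraries in the MBH, DMH, PVN and pituitary gland, which limits what can be tested. The median of all gene symbols was read in 37, 18, 29 and 9, respectively. Neither order followed the median depths, so this was not particular to collagen genes, and the PVN isoforms carry identifiers of another kind.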
